A study of Homo sapiens with 5 samples.

Results

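HBEGF, the gene of heparin-binding EGF-like growth factor, was followed together with 3 other ligands of the EGF receptor (AREG, EREG and TGFA) and 3 receptors of the same family (EGFR, ERBB2 and ERBB3), which makes 7 of the 58929 genes in the deposited tables. HBEGF was chosen by its measured counts, which were higher with both RBMS1 hairpins, so its knockdown values are given as a description with no test, and the other 6 genes were added by family membership. The data are 5 libraries of A549, an established human lung adenocarcinoma line, and the design text of the series calls them ribosome footprint profiling, in which fragments shielded by ribosomes are sequenced. The labels describe both a total RNA input and ribosome-protected fragments, and give the molecule as total RNA. That the libraries are footprints therefore rests on the design text. Footprint counts depend on both the amount of an mRNA and how densely ribosomes sit on it. RBMS1, the RNA-binding protein under study, was stably depleted with the hairpins sh1088 and sh1196 (1 library each), and a hairpin control named sh control (1 library) is their reference. RBMS1 was stably overexpressed in the line R1A (1 library), and a control named pCDH (1 library) is its reference. All 5 lines were grown in F12K medium with serum, and per the labels' protocols they received cycloheximide at 100 ug/mL for 15 min before lysis and RNase I for 5 min after it. The labels do not say whether a line is 1 clone or a pool of cells, or which promoter drives the transgene. In such bulk samples, fewer cells of a type and less RNA per cell cannot be told apart.

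The EGF receptor family consists of receptor tyrosine kinases that pair up on the cell surface when a ligand binds, and then signal through RAS and ERK, through PI3 kinase and through STAT3. HBEGF, AREG, EREG and TGFA are made as membrane-anchored precursors, from which metalloproteases such as ADAM17 release the soluble growth factor. In airway and lung epithelium these ligands are known for wound repair and for autocrine growth of carcinoma cells, and several of them are themselves induced by ERK signalling.

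The 4 ligands share 1 receptor-binding fold, the EGF-like domain, held by 3 disulphide bonds between 6 cysteines. The coding sequence of that domain is shown for each ligand because it is what makes these genes 1 family, with cysteine codons in capitals (GENCODE 29, GRCh38, 5′ to 3′ on the coding strand). The domain was chr5:140335997-140342711 on the minus strand for HBEGF, chr4:74449172-74450410 on the plus strand for AREG, chr4:74381061-74382675 on the plus strand for EREG and chr2:70456458-70465692 on the minus strand for TGFA. In each gene it was split between exons 3 and 4, so these spans hold an intron that is not printed.
HBEGF: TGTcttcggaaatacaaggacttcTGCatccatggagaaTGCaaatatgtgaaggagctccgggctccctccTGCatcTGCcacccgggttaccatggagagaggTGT
AREG: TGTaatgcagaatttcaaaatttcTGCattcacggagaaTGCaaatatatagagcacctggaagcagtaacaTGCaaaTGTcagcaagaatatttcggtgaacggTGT
EREG: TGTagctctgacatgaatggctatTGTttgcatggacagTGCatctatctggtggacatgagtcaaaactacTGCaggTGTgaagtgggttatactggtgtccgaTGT
TGFA: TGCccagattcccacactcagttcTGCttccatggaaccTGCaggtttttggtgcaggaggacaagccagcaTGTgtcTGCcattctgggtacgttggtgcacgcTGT
All 4 domains had 36 codons and 108 bases, with 7, 4, 10, 1 and 8 codons between successive cysteines. Their GC content differed, at 52.8% in HBEGF, 38.0% in AREG, 45.4% in EREG and 54.6% in TGFA. Over the whole gene the mean GC content of annotated transcripts was 48.5% for HBEGF, 41.2% for AREG, 39.2% for EREG, 57.5% for TGFA, 53.0% for EGFR, 59.3% for ERBB2 and 52.2% for ERBB3.

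HBEGF (ENSG00000113070.8) lies on chromosome 5 from 140332843 to 140346631, and the annotation has no other gene in that span. AREG (ENSG00000109321.11) lies on chromosome 4 from 74445134 to 74455009, and EREG (ENSG00000124882.4) lies upstream of it on the same strand from 74365143 to 74388751. TGFA (ENSG00000163235.16) lies on chromosome 2 from 70447280 to 70554193 and overlaps TGFA-IT1 on its own strand, so that counts could be split between them. EGFR (ENSG00000146648.18) lies on chromosome 7 from 55019021 to 55211628, over an antisense gene, EGFR-AS1, that had 0 counts in all 5 libraries. ERBB2 (ENSG00000141736.13) lies on chromosome 17 from 39687914 to 39730426, over MIR4728 on its own strand and over parts of MIEN1 and PGAP3 on the other. ERBB3 (ENSG00000065361.15) lies on chromosome 12 from 56076799 to 56103505 and overlaps AC034102.2 on its own strand. Neither labels nor headers say whether the counting used strand.

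The libraries held 10327747 to 13980843 expected counts, of which nuclear protein-coding genes took 42.2% in sh1088, 66.0% in sh1196, 37.7% in the sh control, 62.3% in R1A and 66.3% in the pCDH control. Levels are therefore given as CPM (counts per 1000000 counts) after TMM scaling, which sets libraries to a common level over genes in the middle of the range, with exact 95% Poisson intervals that cover counting error only. RBMS1 had 18.3 CPM in sh1088 and 13.4 CPM in sh1196, against 31.0 CPM in the sh control, and 37.0 CPM in R1A, against 24.7 CPM in the pCDH control. Between the hairpins and the sh control this was -0.93 on the log2 scale (SE 0.45), which did not pass in edgeR's quasi-likelihood test (adjusted p = 0.828). On the deposited TPM, which divides by the length assigned in each library, the order turned, with 3.7 in sh1088 and 4.2 in sh1196, against 1.59 in the sh control, where RSEM gave RBMS1 a length of 4154 nt, against 1822 nt in sh1088 and 2003 nt in sh1196. FPKM likewise had 8.43 and 8.56 in sh1088 and sh1196, against 5.22 in the sh control. The log2 median over all genes of the hairpin mean over the sh control was itself 0.977 on TPM and 0.585 on FPKM. For RBMS1, TMM-scaled CPM per kb of effective length was 10.3 in sh1088 and 6.85 in sh1196, against 7.55 in the sh control. The hairpins thus stood on either side of the sh control on that scale. All 10 marker genes of A549 epithelium were detected. Their summed levels were 9569, 8539, 10870, 13410 and 6891 CPM in sh1088, sh1196, the sh control, R1A and the pCDH control. ALDH1A1 alone made up 5844, 5468, 5876, 7989 and 3505 CPM of these sums. In knockdown 2 of the 10 had a positive and 8 a negative log2 fold change, and 0 passed edgeR. Their median was -0.297, beside 0.07 over all genes, and 8 of the 10 were higher in R1A than in the pCDH control. Of the other cell types, DCN, PTPRC, CD3E and VWF, which mark fibroblasts, leukocytes, T cells and endothelium, were at 0 in every library. The other markers of those lists were not, with 10 to 167 counts of COL1A1 and, in at least 1 library each, up to 3 of LUM, 11 of LYZ, 9 of PECAM1 and 8 of CDH5.

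HBEGF, whose membrane-bound precursor also serves as the receptor for diphtheria toxin, was a low-count gene in all 5 libraries. It had 77 counts in sh1088 and 122 in sh1196, against 7 counts in the sh control. Scaled, this was 8.01 CPM (interval 6.32 to 10.0) in sh1088 and 9.46 CPM (7.85 to 11.3) in sh1196, against 0.872 CPM (0.350 to 1.80) in the sh control. Both hairpin libraries lay above the sh control with no overlap of the counting intervals, which is the pattern the gene was picked for. The 2 hairpins averaged 8.73 ± 1.03 CPM (SD, n = 2), and their own intervals overlapped. As a description, HBEGF was 9.19-fold higher in sh1088 and 10.8-fold higher in sh1196 than in the sh control, and edgeR's fitted log2 fold change was 3.34 (SE 0.75). The sh control value rests on 7 counts, so the log2 ratio to it spanned 2.09 to 4.56 for sh1088 and 2.35 to 4.79 for sh1196 from counting error alone.

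The rule that picked HBEGF did not name the overexpression arm, but earlier results of these data were known when the genes were chosen. In that arm HBEGF had 33 counts and 2.78 CPM (1.91 to 3.90) in R1A, against 123 counts and 7.05 CPM (5.86 to 8.42) in the pCDH control. R1A lay below the pCDH control with no overlap, at 0.394 of its level (log2 ratio -1.34, counting interval -1.95 to -0.78). With 1 library in each group this difference has no replicate check. The 2 control libraries themselves lay further apart than that: the pCDH control was 8.09-fold above the sh control (log2 ratio 3.02, interval 1.93 to 4.36). Ordered by level, sh1196, sh1088 and the pCDH control had overlapping intervals, R1A lay below them, and the sh control lay below R1A. Hairpin HBEGF was thus close to the pCDH control. Set against the pCDH control instead of the sh control, its knockdown log2 fold change was 0.32.

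AREG, which encodes amphiregulin, was the ligand whose levels were ordered most like those of HBEGF. It had 161 CPM (153 to 170) in sh1088 and 137 CPM (131 to 144) in sh1196, against 53.7 CPM (48.7 to 59.0) in the sh control. In the other arm it had 50.6 CPM (46.6 to 54.8) in R1A, against 145 CPM (140 to 151) in the pCDH control. The high libraries were sh1088, the pCDH control and sh1196, and the sh control and R1A were low with overlapping intervals. The hairpins averaged 149 ± 17.1 CPM (SD, n = 2), 3.01-fold above the sh control in sh1088 and 2.55-fold in sh1196. In R1A it was at 0.349 of the pCDH control (log2 ratio -1.52, interval -1.65 to -1.39). The pCDH control was 2.70-fold above the sh control. In edgeR's quasi-likelihood test over all genes the knockdown log2 fold change of AREG was 1.51 (SE 0.52) and did not pass (adjusted p = 0.828). Against the pCDH control that fold change was 0.06 (edgeR adjusted p = 0.972).

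**Figure D1:**
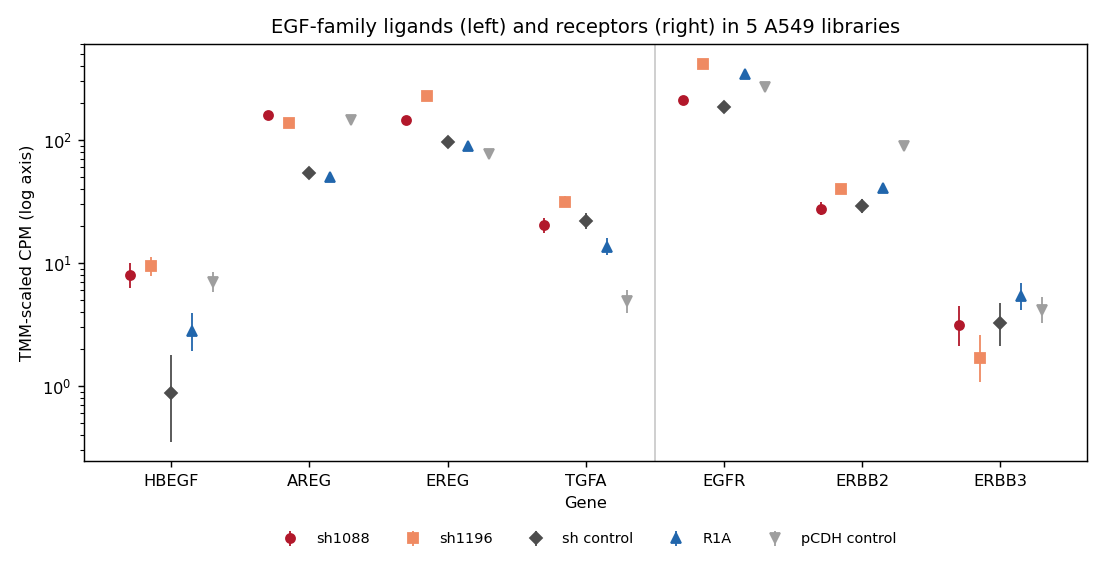
Levels of 4 EGF-family ligands and 3 receptors (x axis) in TMM-scaled CPM on a log axis, 1 point per library, with bars for exact 95% Poisson counting intervals. HBEGF and AREG were high in sh1088, sh1196 and the pCDH control and lower in the sh control and R1A, HBEGF between 0.872 and 9.46 CPM and AREG between 50.6 and 161 CPM.

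EREG encodes epiregulin, a ligand of EGFR and ERBB4, and did not follow that order. It had 145 CPM in sh1088 and 229 CPM in sh1196, against 96.7 CPM in the sh control. R1A had 89.2 CPM, against 77.7 CPM in the pCDH control. Both hairpin libraries lay above the sh control, sh1196 further than sh1088, while R1A overlapped the sh control and the pCDH control lay below it. The knockdown log2 fold change of EREG was 0.98 (SE 0.55) and did not pass in edgeR (adjusted p = 0.828), and the log2 ratios were 0.58 in sh1088 and 1.24 in sh1196. Against the pCDH control the fold change was 1.28 (edgeR adjusted p = 0.294), so the hairpin libraries were above both controls. In R1A the log2 ratio to the pCDH control was 0.20 (interval 0.08 to 0.32), and its sign turned to -0.63 on TPM, where the median of all genes was itself -0.72, and to -0.51 once the trend with GC content was taken out.

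TGFA encodes transforming growth factor alpha, the classic autocrine ligand of EGFR in carcinoma cells. It had 20.3 CPM in sh1088 and 31.6 CPM in sh1196, against 21.9 CPM in the sh control. The 2 hairpins stood on either side of the sh control, and sh1088 overlapped it. In the overexpression arm TGFA had 13.6 CPM (11.6 to 15.9) in R1A, against 4.88 CPM (3.90 to 6.03) in the pCDH control, which was the lowest library. R1A was 2.80-fold above the pCDH control (log2 ratio 1.48, interval 1.10 to 1.88), and the pCDH control was at 0.222 of the sh control. Its knockdown log2 fold change of 0.28 (SE 0.48) did not pass in edgeR (adjusted p = 0.930). Measured from the pCDH control it was 2.43 (edgeR adjusted p = 0.0874). TGFA thus ran opposite to HBEGF and AREG in the overexpression arm.

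EGFR, the receptor for all 4 ligands, had the most counts of the 7 genes in every library, on a scale that ignores gene length. Its values were 212 CPM in sh1088 and 414 CPM in sh1196, against 185 CPM in the sh control, and 347 CPM in R1A, against 268 CPM in the pCDH control. All 4 other libraries lay above the sh control, and no neighbouring intervals overlapped. Hairpin sh1196 was 1.95-fold above sh1088, so that the hairpins differed from each other by more than sh1088 differed from the sh control (1.15-fold). The knockdown log2 fold change of 0.79 (SE 0.61) did not pass in edgeR (adjusted p = 0.853). R1A exceeded the pCDH control with a log2 ratio of 0.37 (interval 0.31 to 0.43), and this sign turned on the deposited TPM (-1.29, median of all genes -0.72) and FPKM (-0.77, median -0.25). RSEM gave EGFR a mean transcript length of 2927 nt in the pCDH control, against 4654 to 6376 nt in the 4 other libraries.

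ERBB2, which binds no known ligand of its own and acts as the preferred partner of the other receptors, had 27.7 CPM in sh1088 and 40.2 CPM in sh1196, against 29.4 CPM in the sh control. It had 40.5 CPM (37.0 to 44.3) in R1A, against 90.1 CPM (85.7 to 94.7) in the pCDH control. The pCDH control was the highest, at 3.07-fold the sh control, R1A and sh1196 overlapped each other below it, and the sh control and sh1088 overlapped at the low end. R1A was at 0.450 of the pCDH control (log2 ratio -1.15, interval -1.30 to -1.01), which became -0.56 with the GC trend taken out. In edgeR, knockdown ERBB2 gave 0.24 (SE 0.47, adjusted p = 0.939) against the sh control and -1.39 (adjusted p = 0.189) against the pCDH control.

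ERBB3, the receptor of neuregulins with little kinase activity of its own, had 30 counts in sh1088 and 22 in sh1196, against 26 in the sh control, and 64 in R1A, against 73 in the pCDH control. This was 3.12 and 1.71 CPM in sh1088 and sh1196, against 3.24 CPM in the sh control, and 5.39 CPM in R1A, against 4.19 CPM in the pCDH control. Every library overlapped its neighbour in level, and the widest gap between neighbours was that of sh1196 below sh1088, with a log2 ratio of -0.87 and a counting interval of -1.74 to -0.029. For ERBB3 edgeR gave -0.40 (SE 0.82) in knockdown, which did not pass (adjusted p = 0.942), and it turned positive on 3 other scalings.

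**Figure D2:**
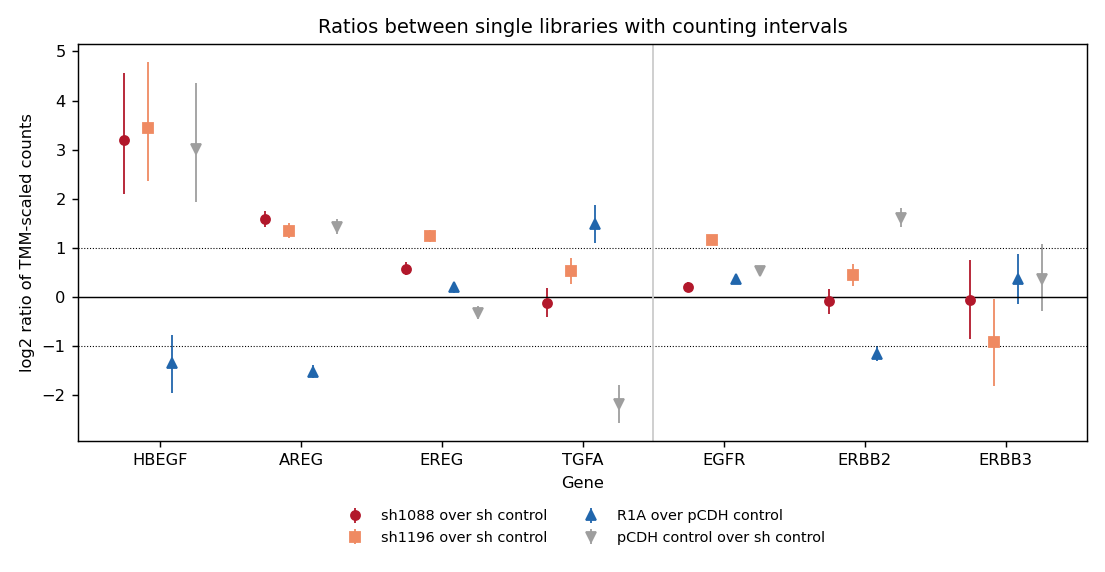
Log2 ratios of TMM-scaled counts (y axis) for each of the 7 genes (x axis) in the hairpin libraries over the sh control, R1A over the pCDH control, and the pCDH control over the sh control, with exact 95% counting intervals. HBEGF and AREG were positive for both hairpins (3.20, 3.44, 1.59 and 1.35), negative for R1A (-1.34 and -1.52) and positive for the pCDH control over the sh control (3.02 and 1.43).

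All 7 genes passed the filter on low counts in the knockdown comparison. Of the 6 that could be tested, 0 passed edgeR's quasi-likelihood test at an adjusted p of 0.05, and over all 14913 genes tested 0.0% did. At an unadjusted p under 0.05 edgeR took 876 genes (5.87%), 487 of them higher (3.27%) with AREG among those, and after adjustment DESeq2 called 13 genes and limma-voom 0. The hairpin libraries share the sh control, so a low value in that 1 library appears in both ratios. Both hairpins were at least 2-fold above the sh control for AREG, and 2.21% of the 10480 genes with a mean of at least 5 CPM in these 3 libraries did the same. HBEGF did so by the way it was chosen and reached that mean only through the hairpins, so nothing is read from its place there. No member was at least 2-fold below it in both, against 2.41% of genes. With no limit on size, both hairpins were above the sh control for HBEGF, AREG, EREG and EGFR, against 33.3% of genes, HBEGF again by choice, and both were below it for ERBB3, which had a mean under 5 CPM, against 37.6% of genes. The median knockdown log2 fold change over all genes tested was 0.07.

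In the overexpression arm 5 of the 7 genes had a mean of at least 5 CPM in R1A and the pCDH control, and HBEGF, at 4.92 CPM between them, and ERBB3 fell short of it. Of these 5, AREG and ERBB2 were at least 2-fold lower in R1A, against 13.6% of 10438 genes, and TGFA was at least 2-fold higher, against 14.6%. Together 28.2% of genes were past 2-fold in either direction. EREG and EGFR were within it. The pCDH control was at least 2-fold above the sh control for AREG and ERBB2 (17.1% of 10593 genes), and for HBEGF, which had a mean under 5 CPM in these libraries and is not among those genes, and at least 2-fold below it for TGFA (19.1% of genes). The pCDH control enters both of these comparisons. Vector, cell line and library differences between the controls cannot be told apart.

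Several properties of the libraries moved with the overexpression comparison. The mean fragment length, taken from the difference between RSEM's length and effective length, was 40.9 nt in R1A and 52.3 nt in the pCDH control, against 43.4 to 46.3 nt in the other libraries. Across 9987 protein-coding genes the log2 ratio of R1A over the pCDH control ran against transcript GC content (Spearman rho -0.58, a description across genes, which are not independent replicates), and that of the pCDH control over the sh control ran with it (0.38). For the hairpins these values were 0.02 in sh1088 and 0.09 in sh1196. With a smooth GC trend taken out, the R1A log2 ratio was -1.54 for HBEGF, -2.15 for AREG and 1.94 for TGFA, further from 0 than without it. For TGFA the ratio was 0.09 on the deposited TPM and 0.58 on FPKM, against all-gene medians of -0.72 and -0.25. COL1A1, a collagen gene on the fibroblast list, had 4.99 CPM in sh1088 and 2.71 CPM in sh1196, against 1.25 CPM in the sh control, and 2.78 CPM in R1A, against 9.58 CPM in the pCDH control, lowest in the sh control as HBEGF was. Its list summed to 1.62 to 9.58 CPM per library with DCN at 0 throughout, the immune list to 0 to 0.631 CPM, and the endothelial list to 0.155 to 1.18 CPM. The part of fragment length and of COL1A1 in the HBEGF and AREG differences was not tested.

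In the authors' deposited table for knockdown, HBEGF had a log2 fold change of 3.35 and AREG one of 1.50. Both carried the authors' class for higher genes, as did 1.69% of the 15560 genes with an adjusted p there. For HBEGF that class restates the rise it was picked for, since the libraries are the same. The same table gave 0.97 for EREG, 0.27 for TGFA, 0.78 for EGFR, 0.23 for ERBB2 and -0.40 for ERBB3, with no class, and 0 of the 7 genes were classed lower, as 1.77% of genes were. For AREG that deposited table lists an adjusted p of 2.16e-04, against 0.828 from edgeR's quasi-likelihood test on the same 3 libraries. DESeq2 and limma-voom, run here on those libraries, gave AREG log2 fold changes of 1.496 and 1.505. Neither run passed AREG at an adjusted p of 0.05, so the deposited call was not reproduced by DESeq2 either. In the authors' deposited table for overexpression, AREG (-0.89) and ERBB2 (-1.51) were classed lower, as were 11.7% of 17714 genes, and EREG (1.06) and TGFA (1.22) were classed higher, as were 13.7%. HBEGF (-0.82), EGFR (0.61) and ERBB3 (-0.31) had no class in that deposited table. For ERBB3 the sign is opposite to that of the count ratio of 0.36. Over 8460 genes with at least 100 counts in both libraries, the log2 fold change in the authors' deposited table less the log2 ratio of DESeq2-scaled counts had a median of -0.06, and it varied between genes, from -0.41 at the 5th to 0.38 at the 95th percentile. For knockdown the same gap lay between 0.017 and 0.0242. How the overexpression values were made is not stated, and the count ratios are the ones used elsewhere.

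The make-up of the ligands within a library does not depend on scaling between libraries and was compared per transcript length, on the authors' TPM. HBEGF was the smallest of the 4 in every library. It held 1.66% of their summed TPM in sh1088 and 1.58% in sh1196, against 0.397% in the sh control. In R1A it held 0.977%, against 1.61% in the pCDH control. The HBEGF shares of the hairpins and the sh control reuse the counts it was picked for, only 7 of them in the sh control. Nothing is therefore read from their difference. AREG took 51.4% in sh1088 and 31.7% in sh1196, against 47.4% in the sh control, and 34.9% in R1A, against 61.9% in the pCDH control. EREG took 37.7% in sh1088 and 54.0% in sh1196, against 33.5% in the sh control, and 54.5% in R1A, against 33.0% in the pCDH control. AREG led in sh1088, the sh control and the pCDH control, and EREG led in sh1196 and R1A. TGFA held 9.32% in sh1088 and 12.7% in sh1196, against 18.6% in the sh control, and 9.69% in R1A, against 3.50% in the pCDH control.

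These shares depend on the transcript length that RSEM assigned in each library. For HBEGF it was 1865 nt in sh1088 and 1695 nt in sh1196, against 2358 nt in the sh control. In R1A it was 2358 nt, against 2256 nt in the pCDH control. The annotation lists a coding HBEGF transcript of 2386 nt beside retained-intron transcripts of 1230 nt and 565 nt. For EREG the assigned length was 1494 nt in sh1088 and 1209 nt in sh1196, against 3061 nt in the sh control, and 1376 nt in R1A, against 1238 nt in the pCDH control. The annotation lists a coding EREG transcript of 4619 nt (EREG-201) beside a retained-intron transcript of 1290 nt (EREG-203) and one of 598 nt (EREG-202). With 1 length per gene in all libraries, an alternative chosen after seeing the data, EREG took 46.0% and AREG 35.1% in the sh control, so that the leading ligand there changed to EREG. HBEGF stayed the smallest ligand on that scale, between 0.328% in the sh control and 1.91% in the pCDH control.

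**Figure D3:**
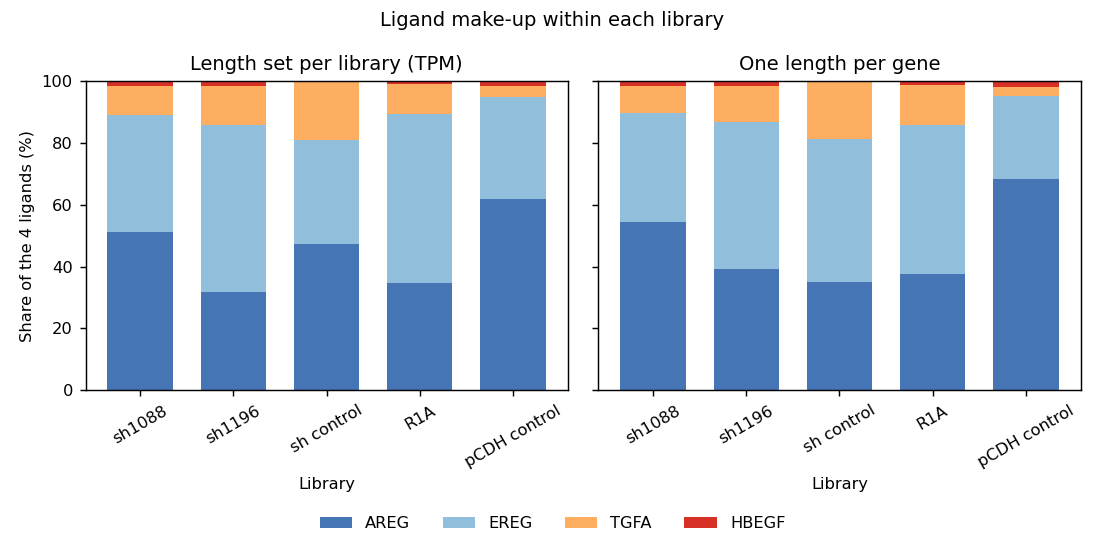
Share of the summed TPM of HBEGF, AREG, EREG and TGFA (y axis, percent) in each of the 5 libraries (x axis), with the same shares from counts per kb of 1 length per gene beside it. AREG and EREG together made up most of the ligand level in every library, and HBEGF was at most 1.66% on TPM.

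Among the 3 receptors EGFR took the largest share of summed TPM in every library, at 63.0% in sh1088 and 79.8% in sh1196, against 62.7% in the sh control, and at 70.4% in R1A, against 68.7% in the pCDH control. ERBB2 took 25.3% in sh1088 and 18.8% in sh1196, against 31.6% in the sh control, and 23.8% in R1A, against 30.5% in the pCDH control. ERBB3 took the rest, from 0.811% in the pCDH control to 11.7% in sh1088, where RSEM gave it a length of 518.6 nt, against 1099 to 3854 nt elsewhere. With 1 length per gene ERBB3 took 3.57% in sh1088 and 2.74% in the pCDH control, and in the pCDH control EGFR took 52.3% and ERBB2 44.9%. Summed ligand TPM was 4.74 times summed receptor TPM in sh1088 and 3.24 times in sh1196, against 2.05 times in the sh control, and 1.44 times in R1A, against 1.46 times in the pCDH control. With 1 length per gene the last pair was 1.24 in R1A, against 1.79 in the pCDH control. HBEGF TPM over EGFR TPM was 0.125 in sh1088 and 0.0639 in sh1196, against 0.0130 in the sh control, and 0.0200 in R1A, against 0.0343 in the pCDH control. With 1 length per gene it was 0.0939 in sh1088 and 0.057 in sh1196, against 0.0117 in the sh control. On that scale R1A had 0.0199, against 0.0655 in the pCDH control, which then lay above sh1196. The hairpin and sh control values of HBEGF over EGFR also reuse the counts HBEGF was picked for, so nothing is read from their difference. AREG over EGFR was 3.86 in sh1088 and 1.29 in sh1196, against 1.55 in the sh control, so the hairpins stood on either side of it. With 1 length per gene that ratio was 3.29 in sh1088 and 1.44 in sh1196, against 1.26 in the sh control, with both hairpins above.

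To find genes with a profile like that of HBEGF, log2 CPM was centred on its mean over the 5 libraries and compared by Euclidean distance among 10561 genes with a mean of at least 5 CPM. The 6 nearest were IGFBP7, HLA-B, ANGPTL4, MERTK, UBXN11 and SLC26A6, at distances of 0.88 to 1.09. IGFBP7, a secreted IGF-binding protein, had 107 CPM in sh1088 and 155 CPM in sh1196, against 30.5 CPM in the sh control, and 60.2 CPM in R1A, against 150.5 CPM in the pCDH control. ANGPTL4, an inhibitor of lipoprotein lipase, had 13.1 and 20.5 CPM in sh1088 and sh1196, against 3.98 CPM in the sh control, and 6.15 CPM in R1A, against 19.4 CPM in the pCDH control. HLA-B, a class I antigen-presenting molecule whose reads may be shared with other HLA genes, had 11.1 and 13.3 CPM in sh1088 and sh1196, against 2.24 CPM in the sh control, and 6.06 CPM in R1A, against 20.8 CPM in the pCDH control. MERTK, a receptor tyrosine kinase, ran from 1.12 CPM in the sh control to 13.5 CPM in sh1196. All 6 were lowest in the sh control.

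Among the members AREG came closest to HBEGF, at rank 34 of these genes (distance 1.44). EREG followed at rank 1398, EGFR at 1601 and ERBB2 at 2822, and TGFA lay at 9116. The distances include the hairpin and sh control values for which HBEGF was picked, so the ranks and the 6 nearest genes partly restate that choice. The likeness rests on 5 libraries, and 22.1% of 10562 genes were lowest in the sh control. HBEGF and AREG were also among 65 genes that were at least 2-fold above the sh control in both hairpins and at least 2-fold below the pCDH control in R1A, which is 0.615% of those genes. For HBEGF the hairpin side of that pattern was fixed by its choice, and its mean reached 5 CPM only through the hairpins. Nothing is therefore read from its place there. AREG remained in that group when the GC trend was taken out, where the group numbered 48 genes. HBEGF was in it too, and nothing is read from that for the same reasons.

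**Figure D4:**
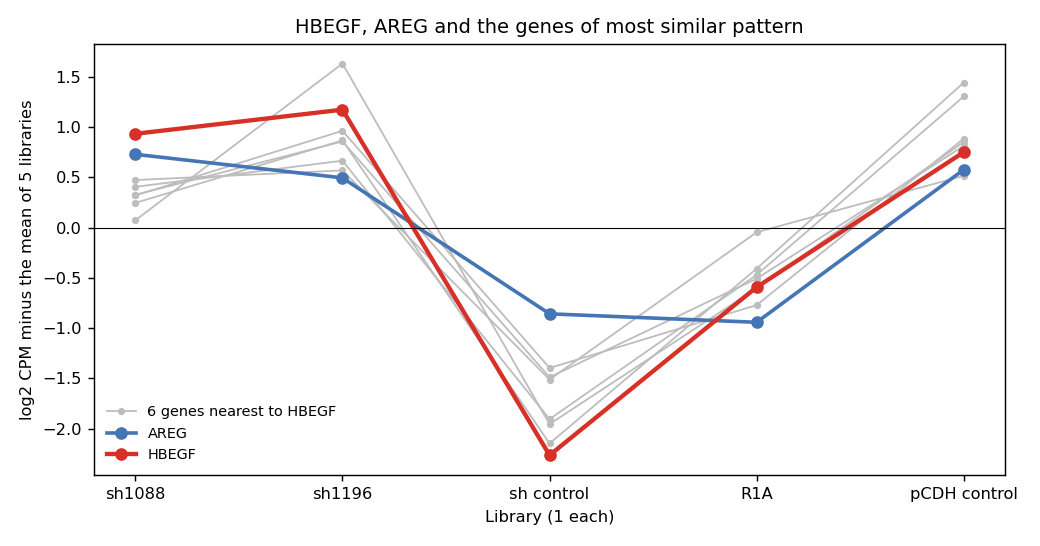
Log2 CPM minus the mean of the 5 libraries (y axis) in each library (x axis) for HBEGF, AREG and the 6 genes nearest to HBEGF in pattern. All 8 lines are lowest in the sh control or in R1A, and the lines of sh1088, sh1196 and the pCDH control lie above 0 for HBEGF and AREG.

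The promoters of HBEGF and AREG are shown because AREG was the member with the profile nearest to that of HBEGF. They are the 250 bases before the annotated start (RefSeq, GRCh38.p14), chr5:140346604-140346853 on the minus strand for HBEGF and chr4:74444886-74445135 on the plus strand for AREG, printed 5′ to 3′ with motif matches in capitals.
HBEGF: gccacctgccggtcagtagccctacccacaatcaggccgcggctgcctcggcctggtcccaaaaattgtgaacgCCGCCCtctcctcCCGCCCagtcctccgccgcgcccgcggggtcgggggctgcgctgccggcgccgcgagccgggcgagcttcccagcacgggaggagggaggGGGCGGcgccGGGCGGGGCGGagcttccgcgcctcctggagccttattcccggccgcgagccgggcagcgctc
AREG: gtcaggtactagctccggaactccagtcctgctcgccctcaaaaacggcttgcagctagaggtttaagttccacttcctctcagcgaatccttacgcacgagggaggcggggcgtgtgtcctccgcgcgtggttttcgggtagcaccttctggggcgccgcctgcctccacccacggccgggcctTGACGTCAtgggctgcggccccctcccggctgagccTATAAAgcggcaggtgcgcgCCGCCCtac
The motifs searched on both strands were the cyclic AMP response element (TGACGTCA), the AP-1 site (TGANTCA), the TATA box (TATAAA) and the GC box (GGGCGG). HBEGF had 5 GC boxes, of which the last pair overlap, and none of the other motifs. AREG had a cyclic AMP response element from -65 to -58, a TATA box from -29 to -24 and a GC box from -9 to -4. Over 35116 promoters of the same length, 1.65% held the cyclic AMP response element, 6.57% the AP-1 site, 10.7% the TATA box and 42.6% the GC box. Of the other members with an entry, EREG and EGFR held a TATA box, TGFA and EGFR a GC box, and EGFR and ERBB2 an AP-1 site, in at least 1 of their promoters. A match describes the letters in this window only.

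Among the other ligands of the family and ERBB4 (8 genes), 4 could be tested and 0 passed edgeR at an adjusted p of 0.05, or at an unadjusted one. NRG1, a neuregulin that binds ERBB3 and ERBB4, had 138 CPM in sh1088 and 340.0 CPM in sh1196, against 108 CPM in the sh control, and 248 CPM in R1A, against 190.4 CPM in the pCDH control. Knockdown gave 1.18 on the log2 scale (SE 0.67), short of edgeR's threshold (adjusted p = 0.828), and sh1196 was the high library. NRG2 had a log2 fold change of -0.31, and NRG4 had 15 counts in sh1088 and 0 in sh1196, against 14 in the sh control, and 3 in R1A, against 0 in the pCDH control. EGF itself had between 1 and 14 counts, EPGN and NRG3 had 0 counts in all libraries, and ERBB4, the fourth receptor of the family, had 1 count in all, in sh1088. A count of 0 allows up to 0.172 CPM in the pCDH control and up to 0.374 CPM in the sh control.

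The 13 genes of ligand shedding and processing all could be tested, 11 with a positive and 2 with a negative log2 fold change, and 0 passed edgeR after adjustment (2 at an unadjusted p under 0.05, beside 5.87% of all genes). Their median log2 fold change was 0.59, beside 0.07 over all genes, and by hairpin it was 0.18 in sh1088 and 0.90 in sh1196. RHBDF1, an inactive rhomboid that brings ADAM17 to the cell surface, had 13.4 CPM in sh1088 and 22.6 CPM in sh1196, against 6.47 CPM in the sh control, and 17.7 CPM in R1A, against 26.5 CPM in the pCDH control. Its knockdown value of 1.51 (SE 0.56) missed edgeR's threshold (adjusted p = 0.828). ADAM17, the main sheddase of AREG, EREG and TGFA, had 81.3 CPM in sh1088 and 127 CPM in sh1196, against 48.8 CPM in the sh control, and at 1.13 (SE 0.53) it missed that threshold too (edgeR adjusted p = 0.828). TIMP3, an inhibitor of ADAM17, had 11 counts in sh1088 and 8 in sh1196, against 0 in the sh control, and 1 in R1A, against 8 in the pCDH control. Of 11 list members measured in R1A, 3 were at least 2-fold lower and 0 higher, beside 13.6% and 14.6% of all genes (median log2 ratio -0.58, beside 0.07 over all genes). The controls differed here as well, with a median of 1.07 for the pCDH control over the sh control.

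Receptor trafficking and restraint had 13 of 14 genes tested, with 8 positive and 5 negative log2 fold changes, a median of 0.20 and 0 past edgeR's adjusted p, or at an unadjusted p under 0.05. LRIG1, which promotes EGFR degradation, had a log2 fold change of 1.14, RNF41, a ubiquitin ligase of ERBB3, had -0.61, and EPN1, an endocytic adaptor, had -0.65. Of 13 measured in R1A, 1 was at least 2-fold higher and 0 lower, beside 14.6% and 13.6% of all genes. The 20 adaptors and members of the signalling cascade had 8 positive and 12 negative values (median -0.07), with 0 past edgeR's adjusted p or an unadjusted p of 0.05. Among those with the smallest p were NRAS (-1.07), a small GTPase of the cascade, and PTPN11 (-0.77), the phosphatase SHP2. In R1A 4 of 19 were at least 2-fold higher and 1 lower, beside the same shares of all genes, with a median log2 ratio of 0.45, beside 0.07.

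The 16 ERK-induced genes and feedback inhibitors gave 6 positive and 10 negative log2 fold changes with a median of -0.11, and 0 passed edgeR's adjusted p, or an unadjusted p of 0.05. SPRED2, an inhibitor of RAS signalling, had -1.08 (SE 0.50), with 28.1 CPM in sh1088 and 15.3 CPM in sh1196, against 46.9 CPM in the sh control. FOSL1, an AP-1 subunit, had 0.82, with 19.7 and 34.7 CPM in sh1088 and sh1196, against 15.8 CPM in the sh control. EPHA2, a receptor tyrosine kinase, had 1.15, with 88.9 and 217 CPM in sh1088 and sh1196, against 70.5 CPM in the sh control. The feedback gene DUSP6 had 42.0 CPM in sh1088 and 42.7 CPM in sh1196, against 30.9 CPM in the sh control, and EGR1, an immediate-early factor, had 144 and 82.5 CPM in sh1088 and sh1196, against 106 CPM in the sh control; both were named after their values were seen. In R1A 5 of 15 were at least 2-fold lower and 1 higher, beside 13.6% and 14.6% of all genes (median -0.38, beside 0.07). The list thus held values on both sides of 0. The part of ERK signalling in the ligand differences was not tested.

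**Figure D5:**
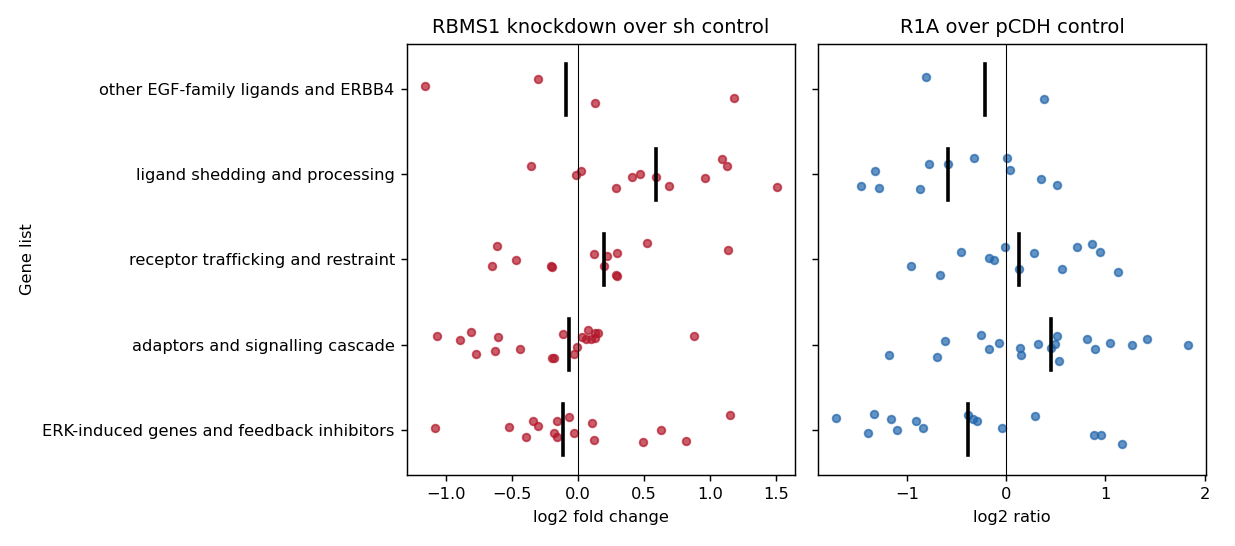
Log2 fold changes in knockdown (left) and log2 ratios of R1A over the pCDH control (right) on the x axes, with 1 point per gene of each list (y axis) and a bar at the list median. Genes at 0 counts in the sh control are left off the knockdown panel. The shedding list had the highest knockdown median (0.59) and the lowest R1A median (-0.58) of the 5 lists.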

How the data were processed

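Libraries of 5 A549 lines, ribosome footprints per the design text, were compared, grouped by the labels' genotype. The authors deposited RSEM expected counts per gene, with TPM, FPKM and transcript lengths, per the file headers. Per the submitters' processing notes, RSEM 1.3.1, STAR 2.4.2, Bowtie and DESeq2 were used, without a stated role. The authors' genome build is not given in the sources used here. For each arm they also deposited a table holding the authors' mean normalised count (a signal per gene), log2 fold changes and p-values, per the file headers. Library totals were 10327747 to 13980843 counts.

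Rounded counts of RBMS1 knockdown (sh1088 and sh1196) were tested against the sh control with edgeR 4.0.16 (robust quasi-likelihood fit, TMM scaling, filterByExpr, Benjamini-Hochberg at 0.05 over 14913 genes) in R 4.3.3, and the standard error is the fold change over the square root of F. With 1 residual degree of freedom, it assumes that the single control varies as the hairpin libraries do. The labels name no separate cultures, so the spread behind a p-value is that of 2 hairpin libraries and may be technical. R1A against the pCDH control is 1 library against 1, given as a ratio of TMM-scaled counts with an exact conditional binomial 95% interval and no p-value. PCR copies are not independent molecules, so intervals and floors (3 counts) cover counting error only. Counts of genes past 2-fold use genes with a mean of at least 5 CPM in the libraries compared, with 0.5 count added. The edgeR fit was checked on simulated data with known changes. There it called 0.719% of 2-fold, 21.4% of 4-fold and 59.7% of 8-fold changes. A gene that did not pass is therefore not shown to be unchanged.

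Gene positions, overlaps and GC content come from GENCODE 29 (GRCh38), to which 58656 of 58929 identifiers matched without their version, so the build may differ from the authors'. Promoters come from RefSeq (GRCh38.p14), where 6 of the 7 genes had an entry. The 7 genes and the gene lists were chosen with earlier results of these data known. Always named were the 7 genes and RBMS1, then up to 3 detected genes of each list with the smallest knockdown p and the 6 genes nearest to HBEGF in centred log2 CPM (prior count 2). One gene that this rule names is not reported here. Alternatives were DESeq2 1.42.0, limma-voom (limma 3.58.1), other scalings including TPM and FPKM with a pseudocount of 1, other filters, a lowess trend on GC (span 0.3) taken out, each hairpin left out, and the other control.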

Additional observations from a re-analysis of the deposited data

How the results depend on the processing

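In knockdown edgeR called 0 genes with its filter and TMM, 27 with library size scaling, 102 with no filter and 93 with the pCDH control, DESeq2 called 13, and limma-voom and the fit of all 5 libraries called 0. The 2940 genes at least 2-fold changed in R1A (1523 higher, 1417 lower) became 4507 at a mean of 1 CPM and 1923 with the GC trend taken out. Scaling moved that split to 1213 and 1741 by library size, 332 and 3868 on TPM and 899 and 2116 on FPKM. The 485 genes 2-fold changed in both hairpins (232 higher, 253 lower) became 1963 on TPM (1949 and 14), 851 on FPKM (785 and 66), 1186 at a mean of 1 CPM, 1537 with the pCDH control, and 602 and 86 by library size. These scalings moved the log2 median of all genes. For the hairpin mean over the sh control it was 0.98 on TPM, 0.58 on FPKM and 0.53 by library size, beside -0.02 with TMM. For R1A over the pCDH control it was -0.72, -0.25 and -0.07 in the same order, beside 0.07 with TMM. The 65 genes high in both hairpins and low in R1A became 175 by library size, 192 at a mean of 1 CPM and 84 to 271 with either hairpin left out (271 without sh1088), alternatives chosen after seeing the data.

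AREG kept a positive knockdown value under each scaling, and both HBEGF and AREG kept a negative R1A ratio to the pCDH control. The positive knockdown sign of HBEGF was fixed by its choice, so nothing is read from it. Its size went from 3.34 to 1.66 on TPM, 2.28 on FPKM and 3.9 by library size. Against the pCDH control, HBEGF stood at 0.32 and AREG at 0.06 in knockdown, and against the sh control R1A gave 1.67 for HBEGF, -0.68 for TGFA and 0.46 for ERBB2, all reversed. Knockdown also reversed for ERBB2 with the pCDH control (-1.39), for TGFA and ERBB2 without sh1196 (-0.11 and -0.087, beside 0.53 and 0.45 without sh1088), and for ERBB3 by library size (0.067), TPM (0.73) and FPKM (0.62). The cause was not tested beyond the change of control. No paired analysis was possible because the groups compared share fewer than 2 replicate numbers. Depth limits HBEGF in the sh control (7 counts) and ERBB3 most.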
